A study of Mus musculus with 6 samples.

Results

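The small proline-rich (Sprr) family was read from 6 RNA-seq libraries of mouse back skin epidermis as 10 genes of the 24014 listed in each count table. They were chosen by symbol, with earlier results of these data known. They are 2 of the Sprr1 group (Sprr1a and Sprr1b), 7 of the Sprr2 group (Sprr2b, Sprr2d, Sprr2e, Sprr2f, Sprr2g, Sprr2h and Sprr2k) and Sprr3. The skin was newborn back skin taken on postnatal day 2. Strain, genotype and the time from blistering to collection are not stated in the labels. The 3 blister libraries came from skin after a suction blister, a lifting of the epidermis off the dermis by negative pressure, which was healing. The other 3 came from control skin. Epidermal cells were freed with trypsin, minced and filtered, so each library held whatever came away with the epidermis. Whether replicates were separate animals is not stated in the labels. The p-values therefore set the group difference only against the spread of these libraries, part of which may be technical.

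Sprr genes encode short proteins whose ends are rich in glutamine and lysine and whose middle is a run of proline-rich repeats. In the outer layers of stratified epithelia, transglutaminases join these ends to loricrin, involucrin and each other to build the cornified envelope, the protein shell that replaces the cell membrane. Sprr1 and Sprr2 genes are known to be induced in wounded and inflamed skin, while Sprr3 is known chiefly from the lining of the mouth and oesophagus.

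Total counts ran from 7600567 to 15912863 per library. Levels are given in CPM, counts divided by library size, where the size is the total times its TMM factor, which evens out differences in composition. Values of a group follow the order of replicate 1, 2 and 3. Basal and suprabasal keratinocyte markers were present in every library, with summed levels of 22360 to 58190 CPM for 6 basal markers and 41020 to 138800 CPM for 7 suprabasal ones, and 0 of these markers were without counts. Of the other cell types listed, dermal fibroblast markers summed to 107 to 820 CPM in blister libraries and 663 to 6151 CPM in controls, the highest being control 3. Neutrophil markers summed to 97.6 to 339 CPM in blister libraries and 26.4 to 29.2 CPM in controls. In these bulk libraries a change in the number of cells of a type and a change in RNA per cell cannot be told apart.

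The promoter windows of the family show what its members share in sequence beside their response. RefSeq (GRCm38.p6) gave a window of 250 bases before to 50 after the annotated start for 9 of the 10 members, Sprr2g being the exception. The 250 bases before the start are printed 5′ to 3′ along the gene for the most abundant Sprr2 member, for both Sprr1 genes, which differed in response, and for Sprr3, which was nearly absent. Capitals mark matches to 3 motifs: TGANTCA, the site of the AP-1 transcription factors, which reads the same on both strands; ATGCAAAT or its reverse complement ATTTGCAT, the octamer bound by POU factors; and TATAAA, the TATA box, on either strand. No 2 of these matches overlapped.
Sprr2h, chr3:92385435-92385684, plus strand: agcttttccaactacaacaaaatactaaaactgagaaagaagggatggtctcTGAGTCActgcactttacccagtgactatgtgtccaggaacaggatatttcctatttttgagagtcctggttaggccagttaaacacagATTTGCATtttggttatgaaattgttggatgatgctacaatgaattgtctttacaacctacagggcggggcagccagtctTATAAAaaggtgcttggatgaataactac
Sprr1b, chr3:92438780-92439029, minus strand: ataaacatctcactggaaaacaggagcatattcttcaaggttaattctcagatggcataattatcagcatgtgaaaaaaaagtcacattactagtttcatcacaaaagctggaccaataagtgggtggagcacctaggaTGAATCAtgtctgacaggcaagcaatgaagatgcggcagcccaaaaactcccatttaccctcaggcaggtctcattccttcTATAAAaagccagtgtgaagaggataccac
Sprr1a, chr3:92485882-92486131, minus strand: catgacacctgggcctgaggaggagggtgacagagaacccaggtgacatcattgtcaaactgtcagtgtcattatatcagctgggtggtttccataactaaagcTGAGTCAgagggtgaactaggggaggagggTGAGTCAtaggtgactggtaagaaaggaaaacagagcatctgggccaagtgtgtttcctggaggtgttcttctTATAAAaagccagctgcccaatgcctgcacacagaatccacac
Sprr3, chr3:92458721-92458970, minus strand: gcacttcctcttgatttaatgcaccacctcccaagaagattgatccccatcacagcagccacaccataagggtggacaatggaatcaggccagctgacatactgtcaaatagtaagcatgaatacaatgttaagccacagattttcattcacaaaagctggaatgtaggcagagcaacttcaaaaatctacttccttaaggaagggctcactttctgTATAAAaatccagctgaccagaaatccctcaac

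All 6 Sprr2 windows held an AP-1 match, an octamer match and a TATA match in the same order and at nearly the same distances. The AP-1 match nearest the far end began 193 to 198 bases before the start, the octamer 108 to 112 bases and the TATA match 29 bases before it in each of the 6. Sprr2k held a second AP-1 match, beginning 182 bases before the start. Neither Sprr1 window held an octamer match. Sprr1a had AP-1 matches beginning at 146 and 116 bases and Sprr1b had 1 at 111 bases before the start. Sprr3 had the TATA match and no match to TGANTCA or the octamer in these letters.

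**Figure D1:**
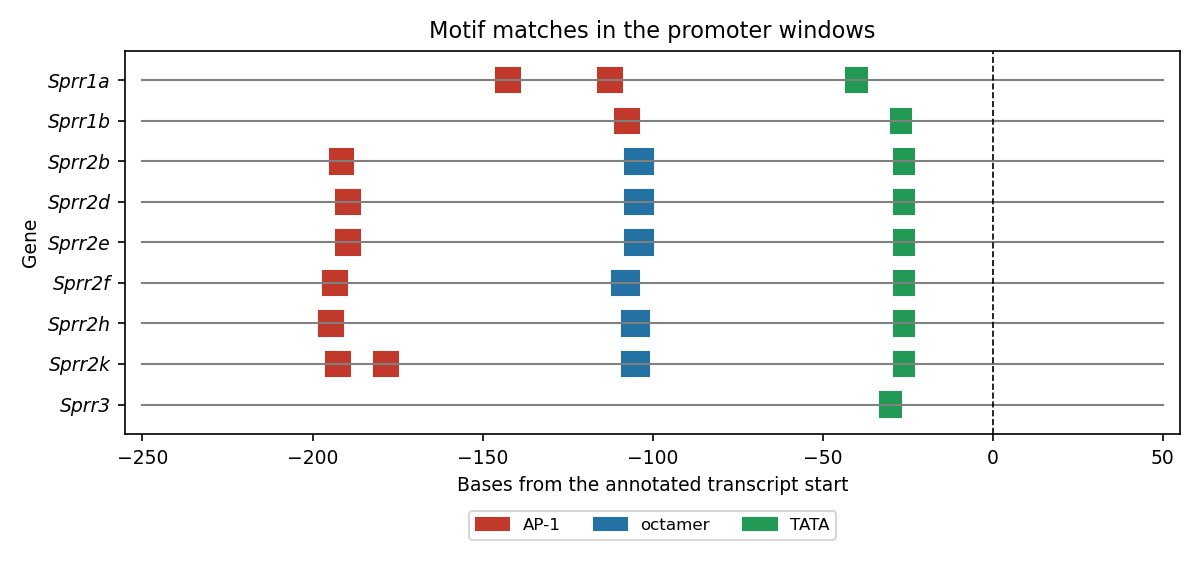
Positions of AP-1, octamer and TATA matches in the promoter windows of 9 Sprr members. The x axis is the distance in bases from the annotated transcript start (dashed line), each row is a gene and coloured blocks are matches; the 6 Sprr2 genes share 1 layout, the Sprr1 genes lack the octamer block and Sprr3 has the TATA block alone.

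Among all 32851 windows of the same length, 7.81% held TGANTCA, 1.74% the octamer and 13.6% TATAAA. A STAT-type motif (TTCNNNGAA) and the interferon response motif, searched on both strands, were in 8.3% and 3.44% of all windows and in 0 of the 9 members. The Sprr2 windows are related copies, with a pairwise identity of 61.9% to 89.1% over 15 pairs, so their shared matches are not independent. Sprr1a and Sprr1b windows were 56.3% identical, and Sprr1 against Sprr2 windows 48.7% to 53.1%. A match is a run of letters, not a measured binding site.

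The comparison of blister with control libraries shows how the family differs between healing and undisturbed epidermis of the same age. Summed over the 10 members, Sprr RNA reached 1650, 1427 and 1206 CPM after blistering, while controls held 421, 311 and 298 CPM. Every blister library stood above every control, and the mean was 4.15-fold higher. Sprr1 genes supplied most of the RNA in both groups, but Sprr2 genes and Sprr1b had the larger folds. Of the 10 members 9 passed the filter on low counts, and all 9 of these rose (edgeR quasi-likelihood test, Benjamini-Hochberg threshold 0.05). Over all 14028 genes tested, 9.74% were called higher and 11.6% lower. For Sprr2e, Sprr2f, Sprr2g and Sprr2k the controls lay under the filter in all 3 libraries, so these genes entered the test through the blister libraries and their calls follow in part from that. Sprr1a, Sprr1b, Sprr2b, Sprr2d and Sprr2h passed the filter in controls as well. In all 9 the 3 blister values lay above the 3 control values, as they did for 21.4% of all genes tested.

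**Figure D2:**
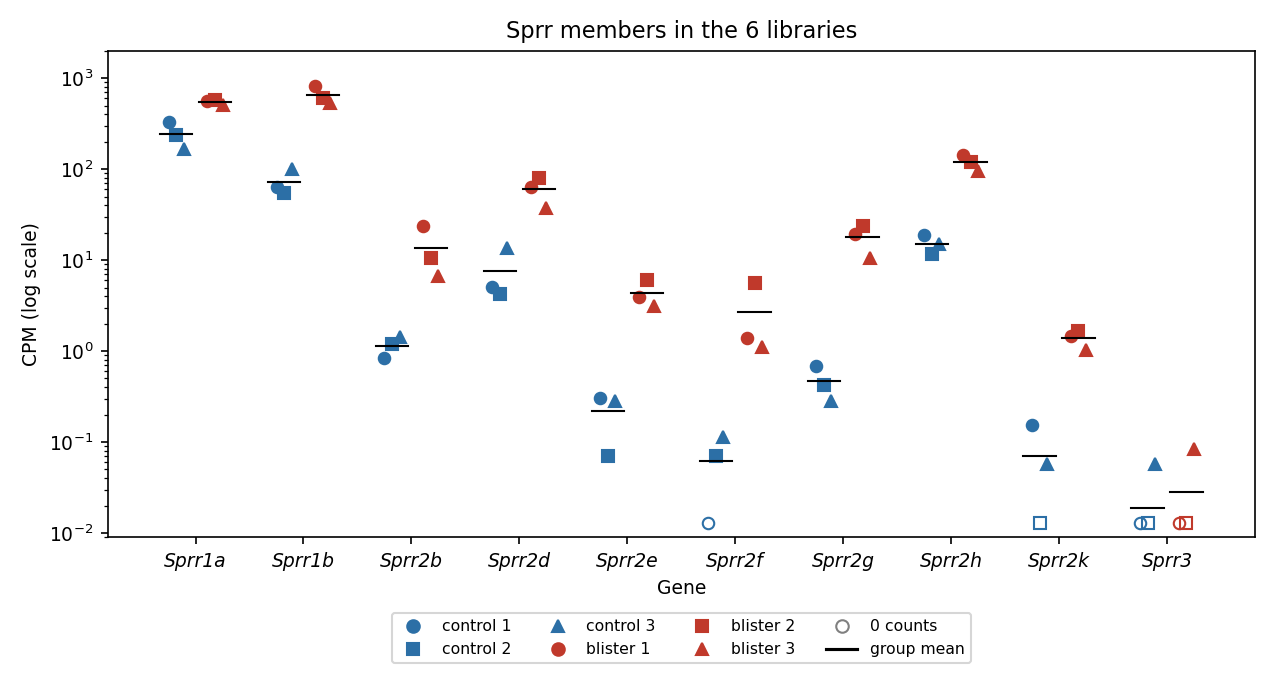
CPM of the 10 Sprr members in each library (y axis, log scale), control in blue and blister in red, with symbols for the replicate number, open symbols for libraries with 0 counts drawn at the foot, and bars for group means of 3. Blister points lie above control points for 9 genes, and Sprr3 has a single count in 1 library of each group.

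Sprr1b, an envelope precursor of stressed and squamous epithelium, had blister values of 828, 598 and 537 CPM and control values of 64.1, 54.7 and 100.3 CPM. Each blister library was at least 5.35 times the highest control, control 3. The means were 654 ± 153.5 and 73.0 ± 24.1 CPM (SD, n = 3 each), 8.96-fold higher. The log2 fold change was 3.16 ± 0.28 (SE) with an edgeR adjusted p of 0.00367.

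Sprr1a, its closest relative and the most abundant member of the control libraries, had a smaller rise. Its blister values were 564, 580 and 513 CPM and its control values 331, 239 and 167 CPM. The blister libraries lay close together while the controls differed among themselves, with control 1 highest and control 3 lowest. The means were 553 ± 35.1 and 246 ± 82.2 CPM, 2.25-fold higher, with a log2 fold change of 1.17 ± 0.24 (SE) and an edgeR adjusted p of 0.018. This call was lost without blister 1 (edgeR adjusted p = 0.0613) and without control 2 (0.06), with log2 fold changes of 1.16 and 1.15, and with the dermal marker level as a covariate, where the log2 fold change was 0.76 and the adjusted p 0.235.

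The balance of the Sprr1 genes therefore differed between groups. Within a library, log2 of Sprr1b over Sprr1a stood at 0.55, 0.04 and 0.06 after blistering, but at -2.37, -2.12 and -0.74 without it. Sprr1a exceeded Sprr1b in each control, least in control 3, and the genes were nearly level in the blister libraries. The difference between groups was 1.96 ± 0.53 (SE), with an exact two-sided permutation p of 0.1, the smallest that 3 against 3 libraries can give (0.125 adjusted over 5 pairs). This pair was chosen after the values were seen.

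Sprr2h, the most abundant Sprr2 gene, had blister values of 143, 121 and 95.9 CPM and control values of 18.7, 11.55 and 14.96 CPM. The groups were far apart and each was tight, with a coefficient of variation of 19.8% in blister and 23.8% in control libraries. The fold was 7.97 and the log2 fold change 2.99 ± 0.22 (SE), with an edgeR adjusted p of 0.00343. Sprr2d, second in level among Sprr2 genes, was at 63.7, 79.6 and 37.3 CPM against 5.06, 4.27 and 13.4 CPM in the same order. Control 3 stood above the other controls for Sprr2d as it did for Sprr1b. The log2 fold change of Sprr2d was 2.96 ± 0.48 (SE, edgeR adjusted p = 0.01), and 3.68 without control 3, where the control mean was 4.67 in place of 7.59 CPM.

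Sprr2g, low in control skin, had the widest gap of the family between its lowest blister and its highest control value. Its blister values were 19.5, 23.5 and 10.6 CPM, and its control values of 0.69, 0.42 and 0.284 CPM came from 20 counts in all. The lowest blister value was 15.4 times the highest control value. The means were 38.4-fold apart, or 5.27 ± 0.45 (SE) on the log2 scale in the fit (edgeR adjusted p = 0.00343). Sprr2b was at 23.9, 10.5 and 6.62 CPM against 0.844, 1.19 and 1.42 CPM. Blister 1 was well above the other blister libraries, and the blister mean of 13.7 CPM became 8.54 CPM without it. The log2 fold change of Sprr2b was 3.54 ± 0.53 (SE, edgeR adjusted p = 0.00827), and 2.88 without blister 1. With the dermal marker covariate the value was 3.04 and the adjusted p 0.118.

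The remaining Sprr2 members were scarce, and counting error is a large part of their uncertainty. Blister values of Sprr2e were 3.95, 6.06 and 3.14 CPM and control values 0.307, 0.07 and 0.284 CPM. That is 124 against 10 counts, a ratio of pooled CPM of 18.6 (95% exact interval 9.78 to 39.7, for counting error only). Its log2 fold change was 4.23 ± 0.51 (SE, edgeR adjusted p = 0.00658). Sprr2f had 15, 41 and 13 counts in blister libraries and 0, 1 and 2 in controls. Blister 2 held most of them, and the blister mean of 2.71 CPM fell to 1.24 CPM without it. The pooled ratio was 34.5 (11.3 to 171), and the edgeR call (adjusted p = 0.0154) was lost without control 1 (0.0536) and without control 2 (0.0518), with log2 fold changes of 4.66 and 5.14 in place of 5.10. The control mean of Sprr2f, 0.0613 CPM, was 0.035 CPM without control 3, and that of Sprr2k, 0.0701 CPM, was 0.0284 CPM without control 1. Sprr2k had 16, 12 and 12 counts against 2, 0 and 1, a pooled ratio of 20 (6.37 to 101.0) and an edgeR adjusted p of 0.00991 (0.0978 with the dermal marker covariate, where the log2 fold change was 4.34 in place of 4.15). Its blister libraries were alike, at 1.02 to 1.65 CPM.

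Sprr3, the member known from oesophagus, had 1 count in blister 3, 1 in control 3 and 0 in the other 4 libraries. A single count in each group is under the limit that 3 counts set, so no fold is given and a difference was not detectable at this depth. The genes to either side of it in the gene order, Sprr1b and Sprr1a, were the most abundant of the family.

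Levels of different genes were compared per length, as RPKM (CPM per kilobase of exon), with exon lengths from GENCODE M21. In controls the order began with Sprr1a at 305 ± 102 RPKM, Sprr1b at 88.0 ± 29.0, Sprr2h at 20.1 ± 4.77 and Sprr2d at 11.1 ± 7.45 RPKM (SD, n = 3). Sprr1a, Sprr1b and Sprr2h did not overlap across control libraries, while Sprr2h and Sprr2d did. Sprr2b followed at 1.47 RPKM, below Sprr2d without overlap, and Sprr2g, Sprr2e, Sprr2k, Sprr2f and Sprr3 had means under 1 RPKM, neighbours among them overlapping. In blister libraries Sprr1b stood at 789 ± 185 and Sprr1a at 686 ± 43.5 RPKM, and their ranges overlapped. Sprr2h was at 160 ± 31.6, Sprr2d at 88.4 ± 31.4 and Sprr2g at 27.4 ± 10.2 RPKM, each apart from the next. Sprr2g, Sprr2b (17.4 RPKM), Sprr2e (6.77), Sprr2f (4.45) and Sprr2k (2.17) each overlapped the next in order. Sprr2g stood above Sprr2b in blister means and below it in control means.

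The make-up of the Sprr pool shifted with these unequal folds. Sprr1a held 78.7%, 76.8% and 56.1% of the summed member CPM in controls, but 34.2%, 40.7% and 42.6% after blistering. Sprr1b held 15.2%, 17.6% and 33.6% in controls and 50.2%, 41.9% and 44.5% in blister libraries. The Sprr2 genes together held 6.12%, 5.65% and 10.2% in controls and 15.6%, 17.4% and 12.9% in blister libraries. None of these shares overlapped between groups, and control 3 was the control nearest to the blister libraries in each. Shares of 1 pool are tied to each other, so they are a description and were not tested.

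**Figure D3:**
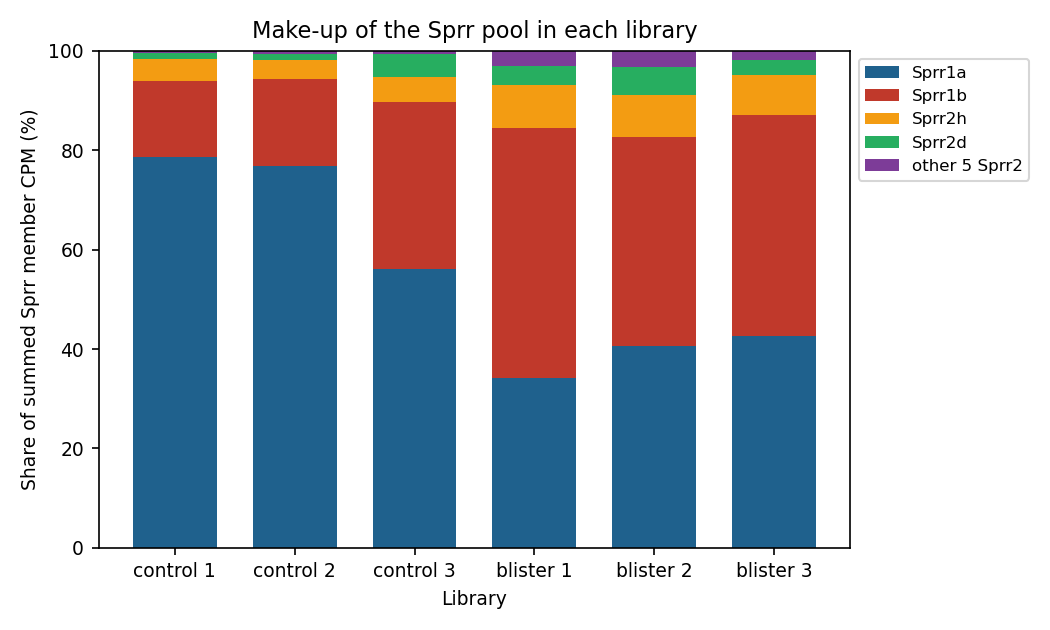
Share of the summed CPM of the 10 Sprr members held by Sprr1a, Sprr1b, Sprr2h, Sprr2d and the other 5 Sprr2 genes (y axis, percent) in each library; Sprr3 is too scarce to see. Sprr1a takes 56.1% to 78.7% in controls and 34.2% to 42.6% in blister libraries.

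Within the Sprr2 group Sprr2g gained the most in share. Sprr2h made up 62.4 ± 12.2% of Sprr2 CPM in controls and 55.4 ± 6.39% in blister libraries, and Sprr2d 29.3 ± 12.9% and 26.9 ± 4.47% (SD, n = 3). Each difference was smaller than the control SD, and the groups overlapped for both genes. Sprr2g went from 2.0 ± 0.937% to 7.96 ± 1.38%, without overlap. The 7 Sprr2 genes summed to 257, 248 and 156 CPM after blistering, against 25.8, 17.6 and 30.6 CPM, an 8.94-fold difference of means. The Sprr1 sum was 3.79-fold higher.

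The most abundant members of the groups were compared in response through their ratio within each library, which needs no scaling. Log2 of Sprr1a over Sprr2h was 1.98, 2.26 and 2.42 after blistering, against 4.13, 4.35 and 3.47 in controls. The log2 change of Sprr1a was 1.77 ± 0.29 (SE) smaller than that of Sprr2h, with groups that did not overlap and an exact permutation p of 0.1 (0.125 adjusted over 5 pairs), the smallest this design allows. For Sprr1b over Sprr2h the values were 2.53, 2.30 and 2.48 against 1.77, 2.23 and 2.73, which overlapped. The difference in log2 change was 0.20 ± 0.29 (SE, exact permutation p = 0.6, also adjusted), so these genes of different groups were not told apart in response. The ratios to Sprr3 rest on 2 counts and are not read.

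Read sharing between copies bears on some Sprr2 rows, and so on the sums that hold them, more than on Sprr1. Transcripts of Sprr1a, Sprr1b, Sprr2g, Sprr2h, Sprr2k and Sprr3 shared 0 runs of 50 bases with any other Sprr transcript in GENCODE M21. For Sprr2f the shared part was 0.714%, for Sprr2d 4.27%, for Sprr2e 10.2% and for Sprr2b 14.1%, the last shared with Sprr2a1. Sprr2d and Sprr2e shared most with Sprr2i, which is outside the 10 members. Sprr2a1 and Sprr2a2, not among the 10 members, share 96.3% and 96.5% of their runs with other Sprr transcripts and are listed at 0 in all 6 libraries. The read length and the treatment of reads with several matches were not stated in the labels or notes, so no level of these genes can be read from that. No other gene's exon overlapped an exon of the 10 members in that annotation, so an antisense partner was not found there.

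Of the other Sprr rows of the tables, outside the 10 members, 1 was called. Blister values of Sprr2i were 3.21, 2.62 and 1.61 CPM and control values 0.153, 0.21 and 0.341 CPM, and it rose by 3.30 ± 0.46 (SE) on the log2 scale (edgeR adjusted p = 0.00764), though it passed the filter through the blister libraries alone. The pseudogene Sprr2j-ps had 21 counts in blister and 3 in control libraries and was not tested. Sprr4, next to Sprr1a in gene order, was at 37.1, 29.3 and 40.6 CPM against 24.0, 21.1 and 8.3 CPM. Its means, 35.7 ± 5.76 and 17.8 ± 8.36 CPM (SD, n = 3), did not pass the test (edgeR adjusted p = 0.0817). Sprr4 and Sprr1a were both lowest in control 3.

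All Sprr genes lie side by side on mouse chromosome 3 in the epidermal differentiation complex, a cluster of genes for the skin barrier. In RefSeq order (GRCm38.p6, genes of the tables only) the Sprr2 genes come first, then Sprr1b, Sprr3, Sprr1a and Sprr4. The log2 fold changes were 2.96 to 5.27 from Sprr2b through Sprr1b and 1.17 at Sprr1a. Of the 10 genes on either side 17 of 20 were tested, and 5 were higher and 2 lower, beside 9.74% and 11.6% over all genes tested. All 5 higher genes lay on the Sprr2 side, among them the alarmin genes S100a8 and S100a9 (log2 fold changes 6.18 and 6.35). Lor and Prr9, between these and the Sprr2 genes, fell by 1.01 and 2.81 on the log2 scale. On the Sprr4 side Ivl stood at -0.08 ± 0.25 (SE, edgeR adjusted p = 0.837), and Lce6a and the 7 Lce1 genes at -0.96 to -0.63, none of which passed the test.

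**Figure D4:**
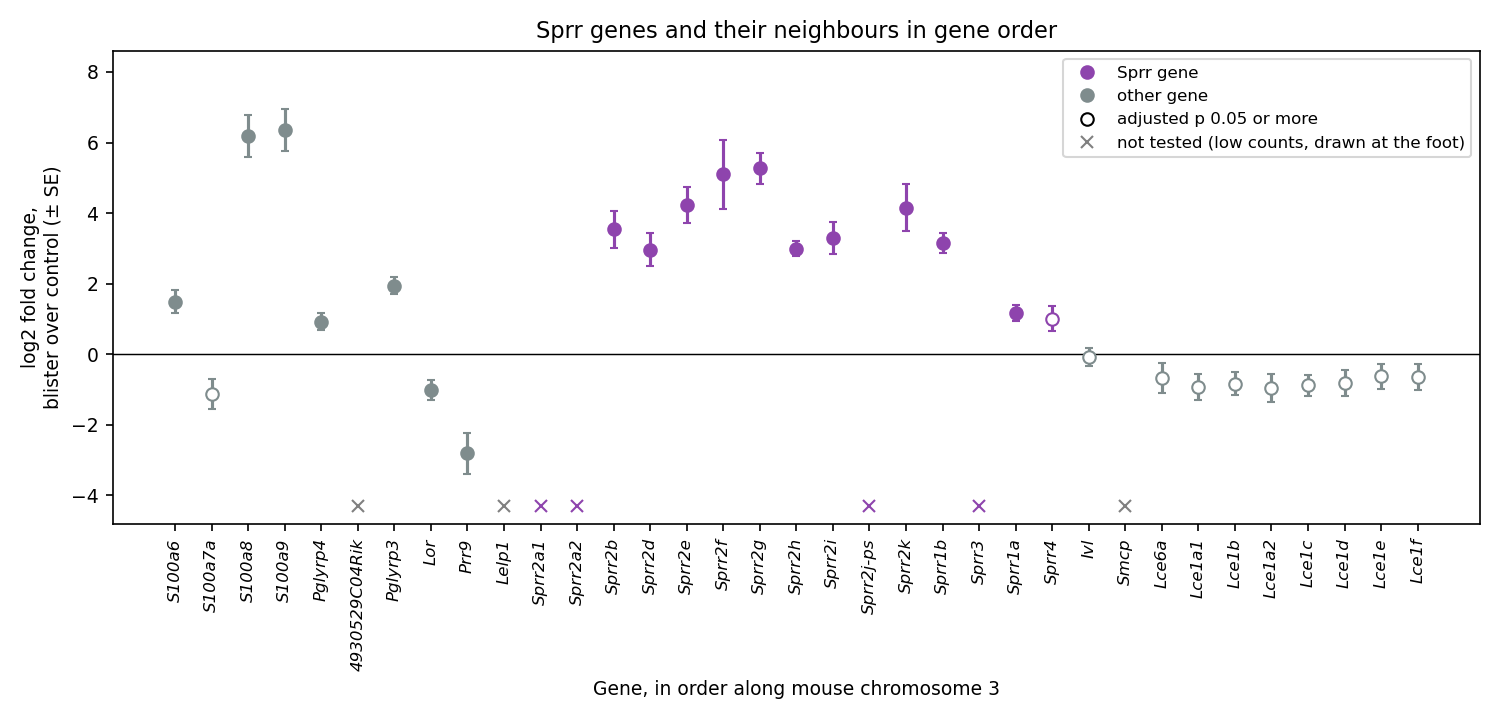
Log2 fold change of blister over control with SE (y axis) for the 15 Sprr rows and the 10 genes on either side, in order along chromosome 3 (x axis, evenly spaced); filled points have an edgeR adjusted p under 0.05 and crosses were not tested. Sprr2 genes and Sprr1b form a raised block from 2.96 to 5.27 that ends at Sprr1a.

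RNA of the other listed envelope precursors moved in both directions. Of 39 such genes, Sprr4 among them, 36 were tested, 6 rose and 5 fell. Their median log2 fold change was -0.60, against 0.0019 for all genes tested. The background was 9.74% higher and 11.6% lower. Lor, the gene of loricrin, fell from 3463 ± 962 to 1720 ± 502 CPM (SD, n = 3, edgeR adjusted p = 0.0418). Ivl, the gene of involucrin, had blister values of 226, 113 and 166 CPM and control values of 176, 208 and 149.7 CPM, which overlapped. The risers included Lce3d, Lce3c and Lce3e, late cornified envelope genes, at 7.22, 13.6 and 3.38 CPM against 0.67, 4.52 and 0.505 CPM. Control 1 and control 2 of Lce3d lay under the filter, at 0.537 and 0.28 CPM, as did control 2 and control 3 of Lce3e, at 0.35 and 0.398 CPM. Rptn, a fused-type S100 protein of the envelope, rose from 58.2 to 217 CPM and was highest among controls in control 3. Prr9 fell from 103 to 14.4 CPM. Among hair follicle markers 11 of 12 fell (median log2 fold change -2.53); Tchh, the trichohyalin gene, is in both lists, and the part of follicle RNA in these values was not tested.

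The 7 transglutaminase genes were listed as a gene family, without regard to which of the enzymes act on the envelope. Of these 0 rose and 1 fell in edgeR, near the share over all genes tested, 9.74% higher and 11.6% lower. At an unadjusted p under 0.05 4 were higher, DESeq2 called 2 higher (Tgm1 and Tgm2) and limma-voom 0. Tgm1, the membrane-bound enzyme of keratinocytes, had blister values of 399, 214 and 242 CPM and control values of 165, 201 and 138 CPM, a log2 difference of 0.77 ± 0.26 (SE) that did not pass (edgeR adjusted p = 0.0694). Tgm3 was at 516, 154 and 246 CPM against 139, 199 and 80.9 CPM, with groups that overlapped (edgeR adjusted p = 0.122). The gene that fell was Tgm6, from 13.3 to 1.49 CPM.

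Among 18 transcription factor genes reported to act on Sprr genes or on late keratinocyte differentiation, 5 rose and 1 fell (9.74% and 11.6% over all genes tested), with a median log2 fold change of 0.53. Ehf, an Ets family factor of epithelia, had blister values of 33.6, 38.96 and 36.3 CPM and control values of 12.7, 10.6 and 7.34 CPM, a log2 difference of 1.83 ± 0.21 (SE, edgeR adjusted p = 0.00641). Elf3, another Ets factor, rose from 7.75 ± 3.45 to 36.4 ± 15.3 CPM. Fosl1, an AP-1 subunit, rose from 0.743 ± 0.352 to 5.96 ± 3.28 CPM. Its control 1 and control 2 lay under the filter, at 0.46 and 0.63 CPM. The more abundant AP-1 genes Junb and Fos did not pass (edgeR adjusted p = 0.0528 and 0.067). Nor did the AP-1 genes Jun, Jund, Fosl2 and Fosb, with log2 fold changes of -0.14, -0.06, -0.13 and 0.28 (edgeR adjusted p = 0.53, 0.829, 0.648 and 0.591). Nfe2l2, the gene of the antioxidant regulator NRF2, rose from 55.3 to 94.5 CPM, and Stat3 from 226 to 332 CPM. Prdm1, the gene of BLIMP1, fell from 58.6 to 28.1 CPM. No link between these genes and the Sprr rows was tested.

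Likeness of pattern to genes outside the family was measured as the root mean square difference of log2 CPM over the 6 libraries, after centring each gene, among 11231 tested genes of at least 5 CPM. Among the nearest to Sprr1a were Nabp1 (0.103) and Gm12070 (0.202). Among the nearest to Sprr2h were Plek (0.273) and Epgn (0.322), the last an EGF receptor ligand gene. Of the abundant members Sprr1b lay 0.303 and Sprr1a 0.931 from Sprr2h, where they would rank 3 and 171 among those genes. From Sprr1a itself Sprr1b and Sprr2h would rank 10079 and 9116 among the 11231 genes. The distance grows with a difference in fold, so these ranks follow in part from the folds given above. Scarce members are drawn towards 0 change by the prior count, so their distances are not read. Sprr3 has too few counts for such a profile. These distances are descriptions over 6 libraries in 2 groups.

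Markers of other cell types moved with the groups. Of 8 neutrophil markers 6 were tested and 6 rose (median log2 fold change 5.45), wound keratinocyte markers rose in 3 of 4, and dermal fibroblast markers fell in 4 of 8, where 9.74% of all genes tested were higher and 11.6% lower. The controls of Cxcr2, Retnlg and Trem1, 3 of the neutrophil markers, all lay under the filter, so these were tested through the blister libraries alone. Their part in the Sprr values was not tested, beyond the fit with the dermal level as a covariate. There 6 of the 9 tested members kept their call, beside 2.02% of all genes tested called in either direction. Of these 6, Sprr2e, Sprr2f and Sprr2g had all 3 controls under the filter and were tested through the blister libraries alone. In the fit with the dermal covariate the log2 fold change was 3.51 for Sprr1b and 2.89 for Sprr2h. It went from 2.96 to 4.30 for Sprr2d, from 4.23 to 5.07 for Sprr2e and from 5.10 to 7.94 for Sprr2f. The Sprr2f values rest on 0, 1 and 2 counts in controls. Xist RNA split both groups: it was abundant in blister 1 and 2 and control 1, at 838 to 1409 CPM, and the other libraries were at 0.512 to 16.9 CPM. Ddx3y, a Y-linked gene, had the reverse pattern, at 0.275 to 1.3 CPM in the Xist-high libraries and 40.2 to 62.0 CPM in the others. Sex-linked RNA was thus not balanced between the groups. Among the 3 Xist-high libraries Sprr1b was 11.1-fold, Sprr2h 7.07-fold, Sprr2g 31.1-fold and Sprr1a 1.73-fold higher in blister than in control, and among the 3 Xist-low libraries 6.93-fold, 7.23-fold, 30.1-fold and 2.53-fold. Sprr2d and Sprr2b differed more between these subsets, at 14.1-fold and 20.3-fold against 4.21-fold and 5.07-fold. With 1 library in an arm of each subset these values have no test.

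Blister 3 was the lowest blister library in Sprr1a, Sprr1b and each Sprr2 member. Without it 9 of 9 tested members were called, with Sprr1b at 3.30 and Sprr2h at 3.14 on the log2 scale. Without control 3 it was again 9 of 9, and without blister 3 and control 3 together, a setting added with the data in view, 9 of 9. Leaving out control 2 left 7 called, control 1 or blister 1 left 8, and blister 2 left 9. Over all genes tested 21.3% were called in either direction with 6 libraries. That share was 9.14% without control 2, 5.52% without control 1, 7.2% without blister 1 and 14.5% without blister 2. It was 28.3% without blister 3, 9.31% without control 3 and 20.9% without both. Sprr2e, Sprr2f, Sprr2g and Sprr2k, low in controls, are among the members counted.

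**Figure D5:**
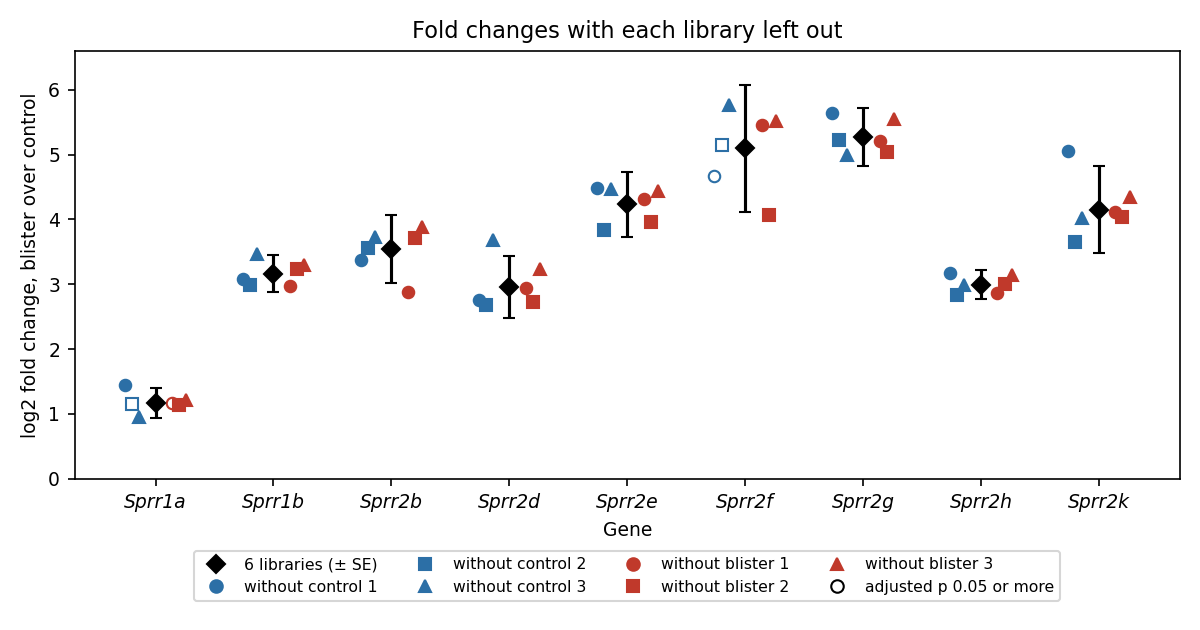
Log2 fold change of each tested Sprr member (y axis) with all 6 libraries (black diamonds with SE) and with each library left out in turn (blue without a control, red without a blister library; open symbols have an edgeR adjusted p of 0.05 or more). Every value stays above 0, and open symbols appear for Sprr1a and Sprr2f alone.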

How the data were processed

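Values are raw read counts per gene symbol as deposited by the authors, 1 table per library. Per the submitters' processing notes, HISAT2 2.0.0 and featureCounts made them, the builds being NCBIM37 and mm9. No source used here gives the strand setting. Libraries were grouped by title, and no 2 libraries of a group were copies. The test was edgeR's (version 4.0.16, R 4.3.3): quasi-likelihood F-test, TMM, group alone, filterByExpr (minimum count 10, total 15), Benjamini-Hochberg over 14028 genes, threshold 0.05. The procedure was tested on simulated data. Ratios of 2 genes used log2 CPM (prior count 2) and exact permutation. Promoters are RefSeq GRCm38.p6, and transcripts and exon lengths GENCODE M21 (GRCm38), another build than the notes name. Members and gene lists were chosen with earlier results of these data known. Named genes are the members, other Sprr rows, up to 5 called genes of each related list by p-value, Lor, Ivl, Tgm1 and Tgm3, and the nearest patterns, some of which are not reported here; others were chosen after their values were seen. Basal, suprabasal, wound keratin, hair follicle, sebaceous, dermal, neutrophil, macrophage, T cell, melanocyte and endothelial markers were tabulated. Alternatives were other scalings, filters and tools, a replicate block, covariates and libraries left out.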

Additional observations from a re-analysis of the deposited data

How the results depend on the processing

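All 9 tested members kept their direction in every alternative run, and 9 were called with median-of-ratios, upper quartile or library size scaling, without a filter (9 of 10), in DESeq2 1.42.0 and limma-voom (limma 3.58.1), without the 50 most abundant genes and with Xist as a covariate. Of all genes tested 12.1% (Xist covariate) to 28.4% (DESeq2) were called in the runs just named. With at least 5 CPM in 3 libraries 6 members were tested and 6 called, beside 22.1% of all genes tested. Leaving out 1 library, 7 to 9 members and 785 to 4061 genes in all were called. All genes called were 1696 with the Xist covariate and 284 with the dermal covariate, the last added with the data in view. Such runs have fewer libraries or degrees of freedom, and the causes of the changes in these counts were not tested. The gap between Sprr1a and Sprr2h ran from -2.02 to -1.58 with 1 library left out. Correlations of deviations from the group mean between libraries of the same replicate number were 0.212, -0.259 and 0.011 for numbers 1, 2 and 3. With 3 libraries in a group these deviations are tied to each other, so the values cannot decide whether the numbers pair the libraries. A replicate block gave 2876 genes and 9 members. Depth limits Sprr2f, Sprr2k and Sprr3 most.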

Other observations

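Over all genes tested 9.74% were higher and 11.6% lower. Of sebaceous gland markers 1 of 5 tested fell (Awat2, a wax synthesis gene), of melanocyte markers 3 of 5 fell (Dct, Pmel and Kit), of endothelial markers 1 of 3 fell (Kdr), and of macrophage and Langerhans cell markers 0 of 9 and of T cell markers 0 of 4 passed edgeR. At an unadjusted p under 0.05 these last lists had 1 and 0 genes, and DESeq2 and limma-voom called 0 in either. The genes nearest in pattern to Sprr1b, a list added after the values were seen, were Plek (0.335), Serpinb2 (0.373) and Cd101 (0.378), while Sprr2h lay at 0.303, closer than any of the 11231 genes outside the family, and Sprr1a at 1.12. Serpinb2, a serpin gene of keratinocytes, was at 387 ± 96.7 CPM in blister and 65.95 ± 9.14 CPM in control libraries (SD, n = 3).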
